A study of Mus musculus with 2 samples.

Results

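Dividing cells were picked out of 2 libraries of sorted mouse lung cells by the RNA of 8 genes that are switched on late in the cell cycle. A cell was a member when at least 3 of Mki67, Top2a, Cenpf, Ccna2, Cdk1, Birc5, Ube2c and Tpx2 had a unique molecular identifier (UMI, 1 tagged RNA molecule), among cells with 500 or more genes, 1000 or more UMIs and no more than 20% of UMIs from mitochondrial genes. The rule found 282 members among 26113 cells, of which 106 of 14086 cells came from lungs at postnatal day 10 (P10) and 176 of 12027 cells came from embryonic lungs at E18.5, shortly before birth. Both libraries came from mice that carry Cdh16CreERT2, a tamoxifen-dependent Cre recombinase under control of Cdh16, and a Cre-activated tdTomato reporter. Tamoxifen was given to the pregnant females from E12.5, by injection or in the diet, and the sources used here do not give the route of each library. Lungs were digested to single cells, stained for CD326 (the epithelial surface protein EpCAM), and red cells were sorted within the CD326 population. The red label marks cells that had active Cre at any time since tamoxifen, its transcript is not among the genes of the matrices, and the number of animals per library is not stated. The labels call the sorted cells alveolar epithelial, give the P10 library an embryonic tissue, and give a reporter genotype (flox/flox) other than that of the design text (flox/wt). With 1 library per time point there is no replicate check and no test: intervals cover counting error only, and differences are those between these 2 libraries.

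A cell that enters the cycle first loads the MCM helicase on its DNA and makes nucleotides (G1 and S phase), then condenses and separates its chromosomes under the kinases Cdk1, Plk1 and Aurora (G2 and M phase). The genes of the second stage are held silent in resting cells and are switched on together. In the lung around birth, dividing cells are known among macrophages and their precursors, lymphocytes, stromal and endothelial cells and alveolar type 2 cells, while airway cells that build many cilia use several mitotic genes without dividing.

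Promoters of 6 of the 8 genes were in the RefSeq table (GRCm38.p6), and those of Ccna2 and Tpx2 were not matched. These stretches are shown because the members were chosen by genes that are switched on together: the first 4 hold 2 letter groups found in promoters of late cell-cycle genes, Cenpf holds one of them there, and Birc5 and the multiciliation gene Ccno are set beside them. Each is the 150 bases before the start site, 5′ to 3′ along the gene's strand, and capitals mark TTTGAA and CCAAT on either strand (also read as TTCAAA and ATTGG). In the printed stretches no match of one motif overlaps a match of the other.
Mki67, chr7:135716380-135716529, minus strand: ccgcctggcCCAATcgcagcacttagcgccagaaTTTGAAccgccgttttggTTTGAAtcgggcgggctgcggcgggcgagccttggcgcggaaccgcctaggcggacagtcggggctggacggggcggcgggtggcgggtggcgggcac
Top2a, chr11:99024190-99024339, minus strand: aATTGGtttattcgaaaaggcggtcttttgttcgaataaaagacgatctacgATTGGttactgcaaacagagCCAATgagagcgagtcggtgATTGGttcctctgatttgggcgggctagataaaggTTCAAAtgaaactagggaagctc
Cdk1, chr10:69352913-69353062, minus strand: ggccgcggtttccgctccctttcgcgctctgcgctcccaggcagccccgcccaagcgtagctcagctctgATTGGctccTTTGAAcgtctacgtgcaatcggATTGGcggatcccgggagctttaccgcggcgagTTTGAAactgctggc
Ube2c, chr2:164769779-164769928, plus strand: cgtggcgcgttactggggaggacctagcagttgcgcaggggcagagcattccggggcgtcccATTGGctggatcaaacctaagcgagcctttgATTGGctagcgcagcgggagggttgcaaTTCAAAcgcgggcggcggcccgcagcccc
Cenpf, chr1:189688087-189688236, minus strand: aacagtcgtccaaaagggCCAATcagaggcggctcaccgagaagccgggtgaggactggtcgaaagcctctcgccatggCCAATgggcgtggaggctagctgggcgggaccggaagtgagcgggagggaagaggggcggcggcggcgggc
Birc5, chr11:117849087-117849236, plus strand: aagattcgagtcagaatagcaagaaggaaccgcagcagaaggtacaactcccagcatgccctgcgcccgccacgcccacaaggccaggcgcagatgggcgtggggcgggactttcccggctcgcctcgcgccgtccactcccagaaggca
Ccno, chr13:112987652-112987801, plus strand: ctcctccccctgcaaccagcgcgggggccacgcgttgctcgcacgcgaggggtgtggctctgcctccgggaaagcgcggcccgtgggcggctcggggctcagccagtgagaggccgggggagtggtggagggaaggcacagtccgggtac
In windows of 300 bases around the start, TTTGAA was present in 5 of these 6 rule genes and CCAAT in 5 of 6, and both stood in the same 5. The TTTGAA of Cenpf lies after the start site, outside its printed stretch. Of all 32851 windows in the table, 17.9% held TTTGAA, 37.4% held CCAAT and 6.95% held both. Birc5 and Ccno held neither. A match is a description of the letters in the window.

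Members were deeper than the other cells. Their median was 20393.5 UMIs per cell (range 4426 to 116534) at P10, against 10227.5 UMIs in the other P10 cells, and 17613.5 UMIs (3967 to 72632) at E18.5, against 8850 UMIs in the other E18.5 cells. The share of members was 0.753% at P10 (exact 95% binomial interval 0.617 to 0.909%) and 1.46% at E18.5 (1.26 to 1.69%). After thinning every cell to 3000 UMIs it was 0.332% at P10 (44 of 13263 cells, 0.241 to 0.445%) and 0.729% at E18.5 (78 of 10695 cells, 0.577 to 0.909%), so the E18.5 share was above the P10 share at both depths. The libraries listed 59 barcodes in common, 52 of them kept in both, and none of these was a member.

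The 8 genes describe the choice and test nothing. Mki67, the antigen Ki-67 that coats mitotic chromosomes, had a UMI in 94.3% of P10 members and 80.1% of E18.5 members. Top2a, the topoisomerase that untangles DNA, had one in 80.2% of P10 and 87.5% of E18.5 members, and Cdk1, the mitotic kinase, in 41.5% of P10 and 70.5% of E18.5 members. No rule gene exceeded 6.05% of the other cells of either library. At the threshold, 24 P10 members and 37 E18.5 members had exactly 3 genes, with a median of 5 and 3 UMIs of the 8 genes together. Just outside it, 150 P10 cells and 194 E18.5 cells had exactly 2, with a median of 2 such UMIs in both libraries. All 8 genes had a UMI in 19 P10 members and 30 E18.5 members.

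Of the 3 non-alveolar genes among the 5 genes of the rule for lineages, Ptprc had a UMI in the most members. Ptprc, which codes for the leukocyte surface phosphatase CD45, had a UMI in 90 of 106 P10 members and 105 of 176 E18.5 members. Its summed level was 266 CPM (UMIs scaled to a common total of summed counts) in P10 members against 50.7 CPM in the other P10 cells, and 101 CPM in E18.5 members against 35.5 CPM in the other E18.5 cells. Pecam1, an endothelial and leukocyte adhesion protein, had a UMI in 62 P10 and 69 E18.5 members, and Col1a1, a fibrillar collagen chain of stromal cells, in 24 and 39. Other alveolar cells, which should lack these genes, had a Ptprc UMI in 9.18% of cells at P10 and 4.26% at E18.5, Pecam1 in 29.1% and 18.46%, and Col1a1 in 8.32% and 8.54%, at median depths of 10499 UMIs at P10 and 8584 UMIs at E18.5. Ptprc was thus far above that background in members, while Pecam1 and Col1a1 summed to 88.1 and 42.4 CPM in P10 members, against 74.0 and 46.9 CPM in the other P10 cells, and to 57.7 and 74.9 CPM in E18.5 members, against 41.3 and 59.7 CPM in the other E18.5 cells.

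Sftpc and Hopx assigned no lineage on their own. Sftpc, the surfactant protein of alveolar type 2 (AT2) cells, had a UMI in every member, and its level was 65807 CPM in P10 members against 130343 CPM in the other P10 cells, and 30179 CPM in E18.5 members against 63211 CPM in the other E18.5 cells. Hopx, a homeodomain protein of alveolar type 1 (AT1) cells, had a UMI in 44 of 106 P10 members at 34.6 CPM and in 174 of 176 E18.5 members at 1502 CPM. The other cells of the same libraries had 30.5 CPM of Hopx at P10 and 2194 CPM at E18.5. Read from the 5 single genes, 31 of 106 P10 members (29.2%) and 53 of 176 E18.5 members (30.1%) had Ptprc without Pecam1 or Col1a1 and so counted as leukocytes, while 63 and 61 had more than 1 of those 3 genes. RNA of the 2 epithelial types was found in cells of all lineages, so lineages were read from lists of 6 to 10 markers, with the 5 genes among them. A cell took a non-alveolar lineage when at least 60% of that list had a UMI. Each name below means cells like that type by these lists alone.

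By these lists, leukocytes made up 84 of 106 P10 members (79.2%, 70.3 to 86.5%) and 100 of 176 E18.5 members (56.8%, 49.2 to 64.2%), against the label of alveolar epithelium. These shares rest on the lists, since the 5 single genes alone gave the lower ones above. Ciliated cells were the next largest named group at E18.5, with 26 members (14.8%), and numbered 3 at P10. Stromal cells gave 2 members at P10 and 11 at E18.5, endothelial cells 1 in each library, erythroid cells 0 and 2, and club cells 0 and 1. Alveolar cells (AT1, AT2 or both lists) gave 6 members at P10, all of them AT2, and 16 at E18.5, of which 5 were AT2, 4 AT1 and 7 carried both lists. The AT1 name was given before the club name, which needed 100 UMIs per 10000 of a club list. In the 4 E18.5 AT1 members the club list ran from 6.07 to 1441 UMIs per 10000 (median 482), so some of them also met the club limit. Other E18.5 AT1 cells had a median of 6.31. A further 8 P10 and 16 E18.5 members carried lists of more than 1 lineage, 7 and 15 of them with the leukocyte list, and 2 and 3 members had none.

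**Figure D1:**
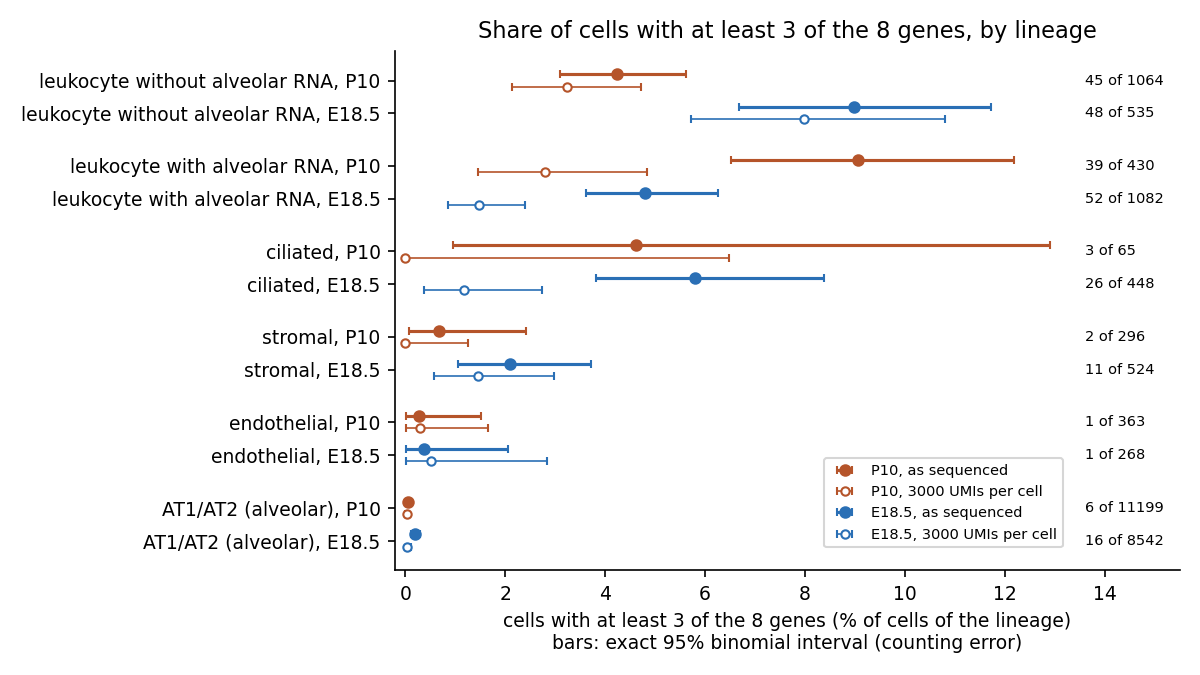
Share of cells with at least 3 of the 8 genes (x axis, % of cells of the lineage) for 6 lineages (rows), with P10 in brown above E18.5 in blue; filled points are cells as sequenced, open points cells thinned to 3000 UMIs, bars exact 95% binomial intervals, and the numbers at the right count members and cells. Leukocytes lie between 4.23 and 9.07% as sequenced, and alveolar cells at 0.0536% at P10 and 0.187% at E18.5.

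Within lineages, dividing cells were found in 5.62% of leukocytes at P10 (84 of 1494, 4.51 to 6.91%) and 6.18% at E18.5 (100 of 1617, 5.06 to 7.47%). In alveolar cells the share of members was 0.0536% at P10 (6 of 11199) and 0.187% at E18.5 (16 of 8542, 0.107 to 0.304%). Thinned to 3000 UMIs, the leukocyte shares were 3.09% and 3.47%, and the alveolar shares 0.0275% and 0.040%, at P10 and E18.5. The order of the 2 libraries among leukocytes differed with the alveolar RNA in the cell, meaning the AT2 or the AT1 list above a limit. The AT2 limit was set for each library, and the AT1 limit was set at E18.5 and used for both. Leukocytes with neither list above its limit, called without alveolar RNA below, had a share of 4.23% at P10 (45 of 1064) and 8.97% at E18.5 (48 of 535), or 3.24% (2.13 to 4.71%) and 7.98% (5.71 to 10.8%) when thinned. Leukocytes with alveolar RNA had 9.07% at P10 (39 of 430) and 4.81% at E18.5 (52 of 1082), or 2.80% (1.45 to 4.84%) and 1.48% (0.851 to 2.40%) when thinned, where the intervals overlap. Leukocyte members with alveolar RNA were also deeper, with a median of 31648 UMIs at P10 and 26691 UMIs at E18.5, against 14114 and 12045 UMIs in those without. No doublet caller was run, so droplets with 2 cells remain, and their part in these shares was not tested.

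**Figure D2:**
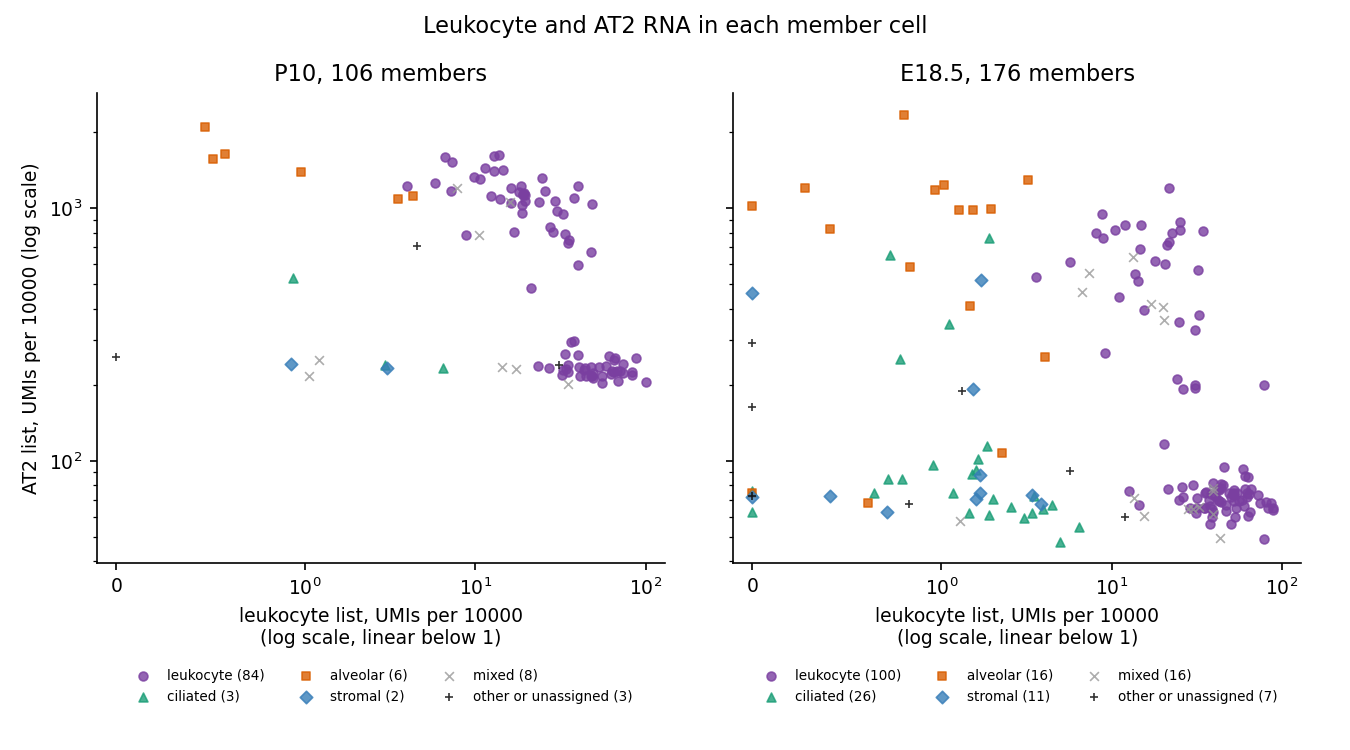
Each point is 1 member cell, P10 left and E18.5 right, by its level of the 10-gene leukocyte list (x axis, UMIs per 10000, log scale that is linear below 1) and of the 10-gene AT2 list (y axis, UMIs per 10000, log scale); colours and marks give the lineage. Leukocyte members fall into a lower and an upper band of AT2 RNA in both libraries, with medians over all of them of 633 at P10 and 75.6 at E18.5.

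The plot of leukocyte against AT2 RNA shows that every leukocyte member carried RNA of the AT2 list. The lowest AT2 list level in a leukocyte member was 204 UMIs per 10000 at P10 and 49.2 at E18.5, and the highest was 1627 and 1202. Other leukocytes had medians of 276 at P10 and 81.6 at E18.5. The AT1 list, which also counts as alveolar RNA, had a median of 5.75 in P10 and 46.7 in E18.5 leukocyte members. Other leukocytes had 4.22 and 70.4, and the AT1 limit was 53.3. The upper quartile of the AT2 list in E18.5 leukocyte members was 336, near its limit of 328. Some E18.5 leukocyte members with alveolar RNA thus passed by the AT1 list alone. The leukocyte list itself stood at a median of 34.1 per 10000 in P10 leukocyte members against 47.1 in other P10 leukocytes, and at 38.1 in E18.5 leukocyte members against 40.7 in other E18.5 leukocytes.

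Alveolar members were few and uneven. Over both libraries, 22 members stood among 19741 alveolar cells, and 11 of them had exactly 3 rule genes while 7 had 7 or 8. The 3 P10 cells with 7 or 8 rule genes held 57 to 168 UMIs of a G2/M list that leaves out the rule genes, and the 4 E18.5 cells held 101 to 133 such UMIs. The 1 P10 cell and 10 E18.5 cells with exactly 3 rule genes held 15 UMIs and 5 to 48 UMIs of that list. Their library sizes overlapped, at 19561 to 20442 UMIs for the P10 cells with 7 or 8 genes and 34531 UMIs for the P10 cell with 3, and at 19211 to 35853 UMIs against 9337 to 48791 UMIs at E18.5. Per 10000 UMIs, E18.5 alveolar members with exactly 3 rule genes held 1.58 to 23.4 of the G2/M list. Those with 7 or 8 held 28.2 to 69.2. Other alveolar cells had a median of 3.87 at E18.5 (highest 36.6) and 2.42 at P10 (highest 42.0). The E18.5 cells with 3 rule genes thus lay within the range of cells outside the rule, and their G2/M RNA does not show that they were dividing. Ptprc had no UMI in 5 of 6 P10 and 16 of 16 E18.5 alveolar members, and in 2 of the 3 P10 ones with 7 or 8 rule genes. Of the 6 P10 members, 1 had Pecam1, with 14 UMIs, and 1 had Col1a1, with 7 UMIs. At E18.5, 7 of 16 had a Pecam1 UMI and 2 a Col1a1 UMI. A list of 10 mesenchymal (stromal) genes reached 13.0 UMIs per 10000 in P10 AT2 members. Other P10 AT2 cells had a median of 0 and a highest level of 258. A few cells named alveolar by the lists carried as many rule genes and as much other G2/M RNA as dividing leukocytes, whose cells with 7 or 8 rule genes had a median of 85 G2/M UMIs at P10 and 53 at E18.5. Whether any of them held RNA of another cell was not tested.

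Stromal and endothelial members were few. The 2 P10 stromal members held 2 UMIs of Mki67, 1 of Top2a and 0 of Ccna2 and Birc5, with 22 S and 11 G2/M UMIs together. The 11 E18.5 stromal members had 269 CPM of Mki67 and 390 CPM of Top2a beside 1028 CPM of Col1a1. Only 4 of the 11 had neither alveolar list above its limit. The AT1 list had a median of 40.8 UMIs per 10000 in the 11, against 13.7 in other E18.5 stromal cells. The AT2 medians were 73.3 and 74.1. The part of doublets was not tested. The single endothelial members had UMIs of all 8 rule genes, 39 UMIs in the P10 cell and 48 in the E18.5 cell.

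Among leukocytes, the members were most often myeloid (macrophage, monocyte or dendritic lists). At P10, 41 of 84 leukocyte members were myeloid, 23 were T or NK cells and 5 were B cells, while 0 of 240 neutrophils were members. At E18.5, 63 of 100 were myeloid, 2 were T or NK cells and 1 was a B cell, again with 0 of 59 neutrophils. Neutrophils were shallow, with medians of 2791.5 UMIs at P10 and 2531 UMIs at E18.5, so dividing ones could be missed. At 3000 UMIs the rule still found 38 of 1231 P10 and 54 of 1554 E18.5 leukocytes, a lower share than as sequenced. A count of 0 allows a share of up to 1.53% of P10 and 6.06% of E18.5 neutrophils as sequenced. For the 105 P10 and 21 E18.5 neutrophils that reach 3000 UMIs, it allows up to 3.45% and 16.1%. A further 5 P10 and 2 E18.5 members had more than 1 of these lists, and 10 and 32 had none. The share of dividing cells was 9.83% of P10 myeloid cells (41 of 417, 7.15 to 13.1%) and 7.18% of E18.5 myeloid cells (63 of 878, 5.56 to 9.09%). When thinned it was 4.82% (2.97 to 7.35%) and 3.45% (2.34 to 4.89%). The order of the point values was the opposite without alveolar RNA, at 8.23% of P10 myeloid cells (19 of 231, 5.02 to 12.5%) and 10.5% of E18.5 myeloid cells (32 of 305, 7.29 to 14.5%). When thinned these were 4.80% (2.42 to 8.43%) and 7.72% (4.96 to 11.4%). The intervals of the 2 libraries overlapped in each of these myeloid pairs, so counting error alone does not separate them. In all leukocytes the share was 8.19% of P10 T or NK cells (23 of 281, 4.76% when thinned) and 1.88% of P10 B cells (5 of 266, 1.02% when thinned).

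Summed counts of leukocyte members were set against the other leukocytes of the same library, with genes of at least 10 CPM in either sum counted as measured and a ratio of at least 2 or at most 0.5 counted as past the fold. At P10, 408 of 9427 measured genes were higher (4.33%) and 244 lower (2.59%), and at E18.5 299 of 8823 were higher (3.39%) and 50 lower (0.567%). The median log2 ratio over all measured genes was 0.04 at P10 and 0.02 at E18.5. Genes of the cycle move with the 8 genes that chose the cells, so their counts are a description.

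DNA replication genes stood higher in both libraries. Of 17 genes that license replication origins, 13 were measured in each library and 11 of them were past the fold, with a median log2 ratio of 1.70 at P10 and 2.26 at E18.5. Mcm3, a subunit of the MCM helicase, had 49.7 CPM in dividing and 8.28 CPM in other P10 leukocytes (ratio 6.01, 4.58 to 7.87), and 60.3 and 7.57 CPM in the same order at E18.5 (ratio 7.97, 6.29 to 10.1). Of 20 fork and nucleotide genes, 20 were measured at P10 and 15 higher, and 17 were measured at E18.5 and 16 higher. Rrm2, the regulated subunit of ribonucleotide reductase, was at 38.6 CPM in dividing and 0.505 CPM in other P10 leukocytes, and at 52.1 and 3.15 CPM at E18.5. Pcna, the sliding clamp of the replication fork, stood at 94.9 and 50.4 CPM at P10 (ratio 1.88, 1.60 to 2.21), short of the fold, and at 176 and 78.6 CPM at E18.5 (ratio 2.24, 1.99 to 2.50). Chromatin copying genes were past the fold for 9 of 10 at P10 and 8 of 10 at E18.5, among them Uhrf1, which directs DNA methylation to copied DNA, with 33.5 CPM in dividing and 1.77 CPM in other P10 leukocytes. Of 14 DNA repair genes, 8 of 9 measured were higher at P10 and 10 of 10 at E18.5.

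Mitotic lists had higher median ratios than replication lists. All measured mitotic kinases (10 of 11 listed at P10, 8 at E18.5), kinetochore genes (18 of 19 listed, and 16) and spindle genes (18 of 19 listed, and 13) were past the fold, with median log2 ratios of 4.42, 3.23 and 4.05 at P10 and 4.98, 3.68 and 3.43 at E18.5. Plk1, the kinase that drives spindle assembly, was at 22.8 CPM in dividing and 0.379 CPM in other P10 leukocytes, and at 16.1 and 0.425 CPM at E18.5. Kif11, the motor that pushes spindle poles apart, was at 84.2 and 1.71 CPM at P10 and 50.6 and 0.893 CPM at E18.5. Of 12 condensin and cohesion genes, 11 were measured and 10 were higher in each library. The remaining one was Pttg1, securin, the inhibitor of sister separation, with 38.1 CPM in dividing and 38.2 CPM in other P10 leukocytes (ratio 0.996, 0.773 to 1.27) and 56.9 and 50.8 CPM at E18.5 (ratio 1.12, 0.920 to 1.36). Of 10 genes of the anaphase-promoting complex and cytokinesis, 9 of 9 measured were higher at P10 and 8 of 9 at E18.5. The gene with the highest ratio among those of at least 50 CPM was Pclaf, a clamp-bound replication factor, in both libraries, with 150 CPM in dividing and 1.26 CPM in other P10 leukocytes and 297 and 1.57 CPM at E18.5.

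The same lists were read in narrower sets of leukocytes, chosen after seeing the data. Without alveolar RNA, 9.64% of measured genes were higher and 7.43% lower in dividing P10 leukocytes, and 10.3% were higher and 4.73% lower at E18.5. There 15 of 16 measured licensing genes were higher at P10 (median log2 ratio 2.53) and 15 of 15 at E18.5 (2.33), and 19 of 19 kinetochore genes were higher in both libraries (4.20 and 4.76). Among myeloid cells alone, 5.29% of measured genes were higher and 2.82% lower in dividing P10 cells, and 3.27% were higher and 0.787% lower at E18.5. Of the licensing list 10 of 12 measured genes were higher in dividing P10 myeloid cells (1.68) and 12 of 13 at E18.5 (2.01). The P10 myeloid set holds 41 members, fewer than the 50 otherwise asked of a summed comparison.

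**Figure D3:**
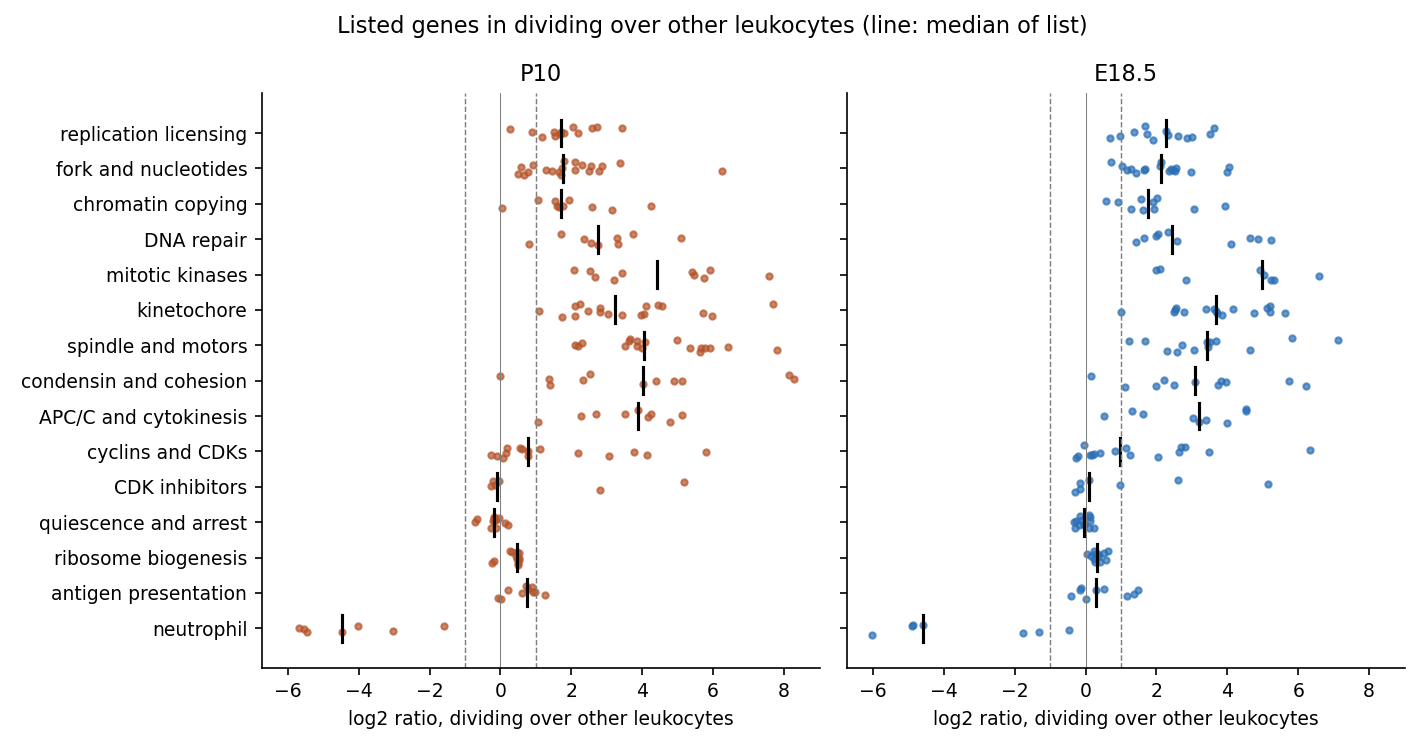
Log2 ratio of dividing over other leukocytes (x axis) for the measured genes of 15 lists (rows), P10 left and E18.5 right; points are genes, black bars list medians, dashed lines the 2-fold limits. A neutrophil gene with no UMI in P10 members is not drawn. Mitotic lists lie furthest right, and the neutrophil list lies left of 0 in both libraries.

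Lists of cyclins, their inhibitors and arrest genes had a smaller share of measured genes past the fold than the mitotic lists. Of 18 cyclins and their kinases, 6 of 15 measured were higher at P10 and 8 of 16 at E18.5. Ccnb1, the mitotic cyclin B1, had 32.0 CPM in dividing and 0.569 CPM in other P10 leukocytes, while Ccnd3, a cyclin of G1, had 212 and 256 CPM (ratio 0.828, 0.747 to 0.916). Of 8 inhibitors of these kinases, 2 of 6 measured were higher at P10 and 2 of 7 at E18.5, namely Cdkn3 (45.7 CPM in dividing and 1.26 CPM in other P10 leukocytes, 25.8 and 0.723 CPM at E18.5) and Cdkn2c, an inhibitor of the G1 kinases Cdk4 and Cdk6. Cdkn1a, the inhibitor p21, had 189 CPM in dividing and 194 CPM in other P10 leukocytes (ratio 0.978, 0.876 to 1.09) and 489 and 460 CPM at E18.5 (ratio 1.06, 0.995 to 1.13). None of the 13 measured genes of a 14-gene quiescence list was past the fold in either library, with a median log2 ratio of -0.17 at P10 and -0.05 at E18.5. The same held for the 12 measured ribosome biogenesis genes of 14, whose median was 0.48 at P10 and 0.31 at E18.5. Btg1, an antiproliferative gene, was at 467 CPM in dividing and 761 CPM in other P10 leukocytes (ratio 0.613, 0.573 to 0.656).

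Lists of leukocyte types also differed between dividing and other leukocytes. Of 8 neutrophil genes, 8 of 8 measured were lower at P10 and 6 of 7 at E18.5. All cells named neutrophils stood among the other leukocytes, so these counts cannot show a change within a cell type. S100a9, a calcium-binding protein of neutrophils, had 52.3 CPM in dividing and 2418 CPM in other P10 leukocytes, and 8.27 and 535 CPM at E18.5. Of 10 T and NK genes, 3 of 7 measured were higher at P10, and Gzma, a granule protease of cytotoxic cells, had 143 CPM in dividing and 16.7 CPM in other P10 leukocytes (ratio 8.52, 7.18 to 10.1) and 25.3 and 4.25 CPM at E18.5. Among myeloid cells alone, Gzma had 0 and 4 UMIs in dividing and other P10 cells. Its P10 direction turned, to a log2 ratio of -1.81, when lineages were read from the 5 single genes. The dendritic cell genes Xcr1 and Clec9a were at 24.9 and 16.7 CPM in dividing P10 leukocytes, against 5.18 and 5.05 CPM in other P10 leukocytes. Within P10 myeloid cells the ratio of Xcr1 was 4.40 (2.89 to 6.66) and that of Clec9a 4.34, with a lower bound of 2.66. Chil3, a chitinase-like protein of alveolar macrophages and neutrophils, was at 237 CPM in dividing and 1307 CPM in other P10 myeloid cells.

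Antigen presentation genes gave different pictures in the 2 libraries. At P10, 1 of 10 measured genes was past the fold in dividing leukocytes, with a list median log2 ratio of 0.75. H2-Aa, an MHC class II chain, had 1438 CPM in dividing and 771 CPM in other P10 leukocytes (ratio 1.86, 1.79 to 1.94), and 2.05 (1.92 to 2.18) was its ratio without alveolar RNA. At E18.5, 3 of 9 were past the fold and H2-Aa had 26.3 CPM in dividing and 11.7 CPM in other leukocytes (ratio 2.24, 1.64 to 3.01). In E18.5 leukocytes without alveolar RNA the direction was the opposite, with H2-Aa at 15.7 CPM in dividing and 46.3 CPM in other cells (ratio 0.340, 0.152 to 0.662) and 4 of 9 measured genes at a ratio of at most 0.5 (4.73% of all genes measured there). The scavenger receptor gene Marco of macrophages also differed by library, with 20.8 CPM in dividing and 48.0 CPM in other P10 leukocytes and 156 and 65.3 CPM at E18.5. Its ratio was 0.434 (0.309 to 0.594) at P10 and 2.38 (2.11 to 2.69) at E18.5, and without alveolar RNA 0.524 and 1.58.

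The 26 ciliated members at E18.5, summed, carried mitotic RNA with almost none of the RNA for replication licensing, and they are called ciliated members here. The sums do not say of each cell whether it was dividing. Deup1, which builds the bodies on which many centrioles form, had 240 CPM in ciliated members and 25.3 CPM in the other 422 ciliated cells. Ccno, a cyclin needed for multiciliation, had 168 and 20.4 CPM, Cdc20b 179 and 4.78 CPM, and Mcidas, a co-activator that starts the ciliated fate, 62.2 and 3.50 CPM. The E18.5 leukocyte members without alveolar RNA had 3.49 CPM of Ccno and no UMI of the other 3. At least 3 of 8 multiciliation genes had a UMI in 19 of 26 ciliated members, in 93 of 422 other ciliated cells and in 0 of 100 leukocyte members. These 8 genes were listed after values of the ciliated members had been seen.

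Mitotic regulators and replication genes parted in these cells. Cdk1 was at 234 CPM in ciliated members and 2.55 CPM in other ciliated cells, Cdc20, the activator of anaphase, at 203 and 2.55 CPM, and Plk1 at 36.6 and 0.478 CPM. The level of Plk1 in leukocyte members without alveolar RNA was 34.9 CPM. By contrast the MCM helicase genes Mcm2 and Mcm4 had no UMI in ciliated members, against 33.2 and 105 CPM in those leukocyte members, and Mcm3, Mcm5 and Mcm6 stood at 1.83 CPM each, against 129, 50.6 and 89.1 CPM. Kif11 was at 12.8 CPM in ciliated members and 107 CPM in leukocyte members without alveolar RNA, and Pcna at 43.9 and 309 CPM. Mki67 was at 47.5 CPM in ciliated members and 4.46 CPM in other ciliated cells.

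The ciliated members were uneven. The 4 of them with 7 or 8 rule genes, at 20948 to 27845 UMIs per cell, held 17 of the 26 Mki67 UMIs and 280 of the 553 rule gene UMIs, but 2 of 92 Ccno, 3 of 131 Deup1, 3 of 98 Cdc20b and 1 of 34 Mcidas UMIs. One of these 4 cells had all 8 rule genes, 42 S and 121 G2/M UMIs, and no UMI of those 4 multiciliation genes. In the other 22 ciliated members, a split chosen after seeing the data, Mki67 was at 20.1 CPM, Birc5 at 6.70 CPM against 98.7 CPM in all 26, Cdk1 at 181 CPM, Cdc20 at 170 CPM, Plk1 at 24.6 CPM and Deup1 at 286 CPM, with 1 UMI each of Mcm3 and Mcm6 and none of Mcm2, Mcm4 or Mcm5.

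**Figure D4:**
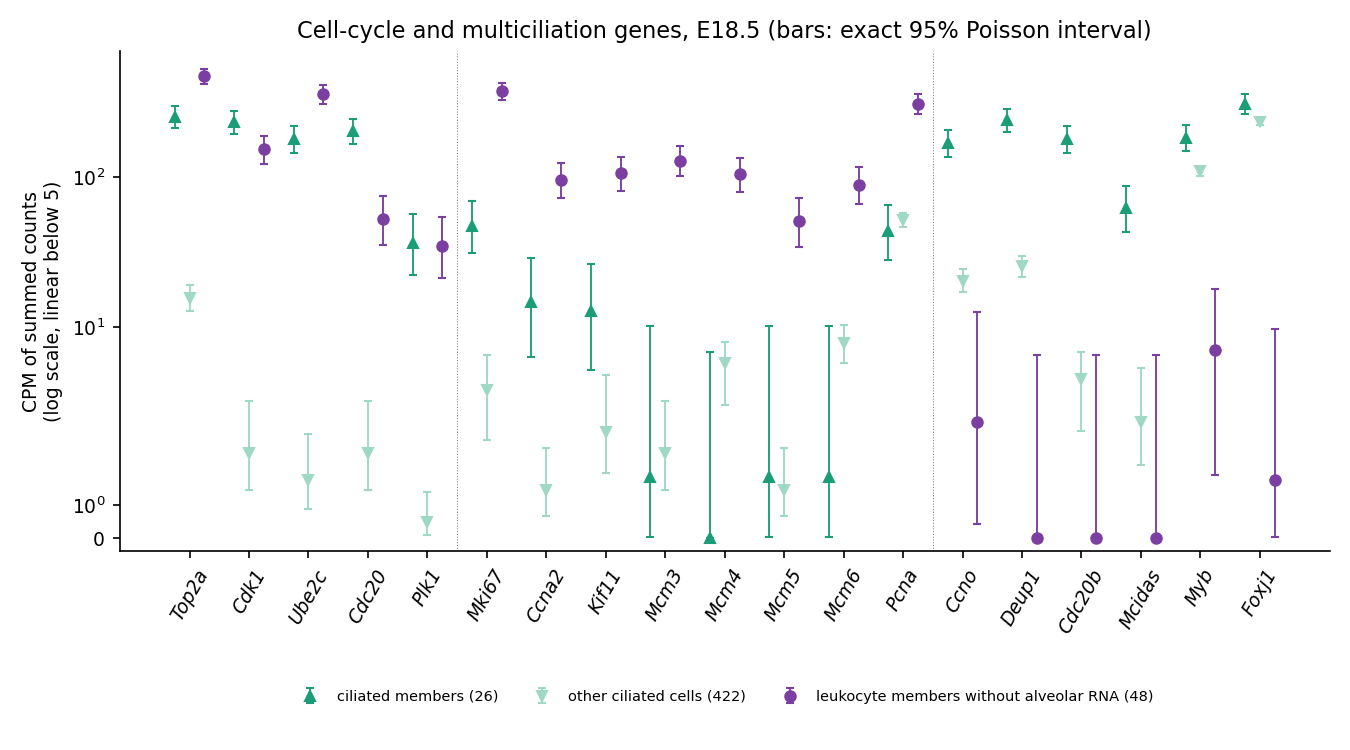
Summed level (y axis, CPM, log scale that is linear below 5) of 19 genes (x axis) in 26 ciliated members, 422 other ciliated cells and 48 leukocyte members without alveolar RNA at E18.5; bars are exact 95% Poisson intervals for counting error, and dotted lines part mitotic regulators, other cycle genes and multiciliation genes. Ciliated members hold Cdk1 at 234 CPM and Deup1 at 240 CPM, with Mcm4 at 0.

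The 3 ciliated members at P10 showed part of the same mix in few UMIs. Their Cdk1 was at 33.9 CPM from 4 UMIs, below the 234 CPM of E18.5 ciliated members. Other P10 ciliated cells had 2.05 CPM of Cdk1. The 3 members had 322 CPM of Top2a, 8.46 CPM of Mki67 from 1 UMI, and no UMI of Ccna2, Kif11, Mcm2, Mcm3 or Mcm5. Ccno was at 322 CPM in them and 23.5 CPM in the other 62 P10 ciliated cells, and Deup1 at 474 and 28.6 CPM. The ciliated list level had a median of 53.8 UMIs per 10000 in E18.5 ciliated members, with a leukocyte list level of 1.62. After thinning to 3000 UMIs, 0 of 55 P10 and 5 of 422 E18.5 ciliated cells met the rule.

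Members varied widely in phase. Lists of 35 S genes and 38 G2/M genes, both without the rule genes, gave an S share of phase UMIs of 30.3% in P10 members (29.3 to 31.2%) and 32.8% in E18.5 members (31.9 to 33.6%). The S list exceeded the G2/M list in 21 of 106 P10 members and 38 of 176 E18.5 members. Among leukocyte members without alveolar RNA the S share was 34.0% at P10 and 36.9% at E18.5, and in ciliated members it was 22.8% and 16.0%. In other leukocytes it was 48.1% and 47.3%. Their summed S level was 4.46 UMIs per 10000 at P10 and 4.30 at E18.5, against 11.7 and 13.9 in leukocyte members. Their G2/M level was 4.81 and 4.80, against 26.9 and 22.0. E18.5 ciliated members had an S level of 5.96, against 4.16 in other ciliated cells. S RNA was thus also present in cells outside the rule, and the S shares of members include that background. The medians per cell were 7.93 S and 21.8 G2/M UMIs per 10000 at P10, and 8.94 and 25.2 at E18.5. Most of the rule genes are known to peak in G2 and M.

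**Figure D5:**
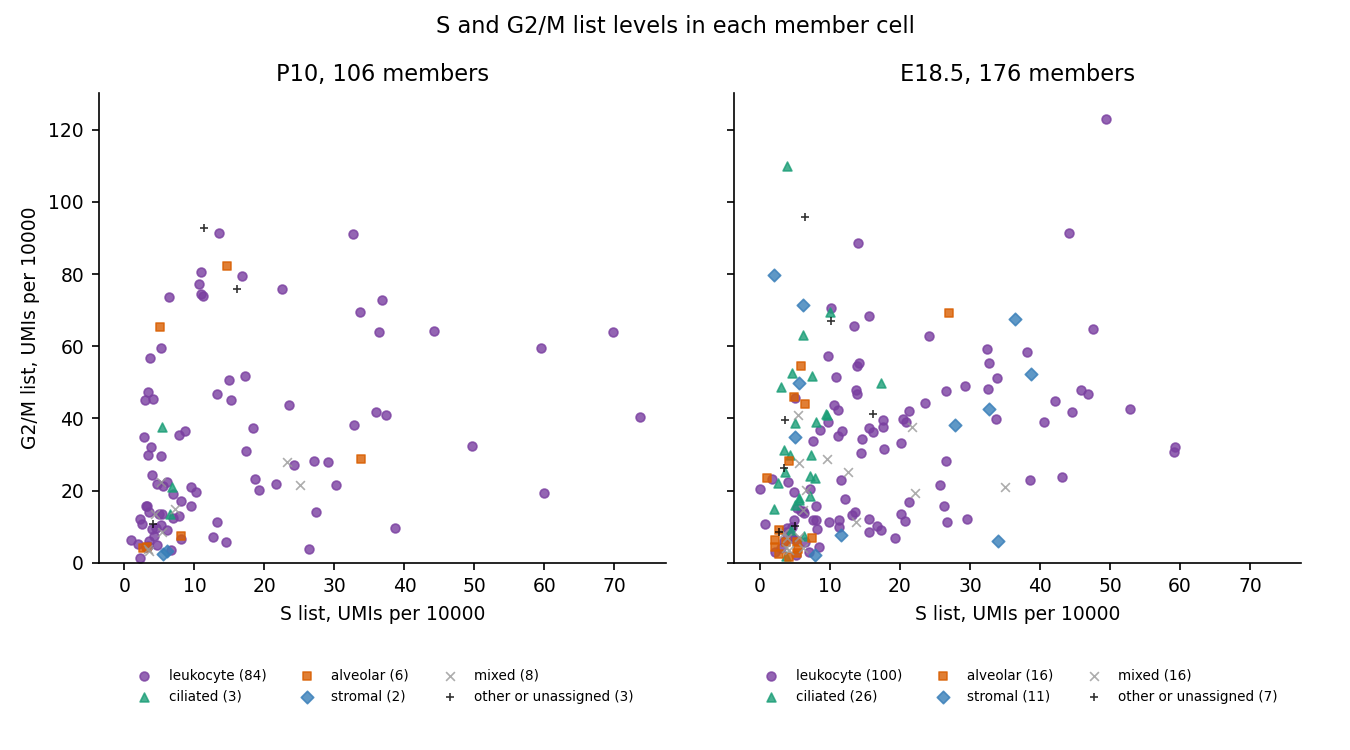
Each point is 1 member cell, P10 left and E18.5 right, by its level of the S list (x axis, UMIs per 10000) and of the G2/M list (y axis, UMIs per 10000); colours and marks give the lineage. Leukocyte members spread over both axes, and E18.5 ciliated members lie at low S levels over a range of G2/M levels.

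Between the 2 libraries, 1657 of 9675 measured genes were at least 2 times higher in P10 than in E18.5 dividing leukocytes (17.1%) and 1038 at least 2 times lower (10.7%), with a median log2 ratio of 0.12 over all of them. In other leukocytes 16.7% were higher and 10.8% lower, with a median of 0.13. Age, library, the mix of leukocyte types and any change within 1 type cannot be told apart here. Most cycle genes were closer than that fold: of 13 licensing genes 0 were higher and 1 lower (median log2 ratio -0.38), of 10 mitotic kinases 0 were past the fold in either direction, and of 18 spindle genes 7 were higher. Mcm7 had 38.6 CPM in P10 and 77.4 CPM in E18.5 dividing leukocytes (ratio 0.499, 0.374 to 0.659), and Cenpe, a kinetochore motor, 108 and 37.5 CPM (ratio 2.87, 2.20 to 3.78). Of 16 measured cyclins and their kinases 3 were higher and 1 lower (median -0.18), and of 7 measured inhibitors 0 were higher and 3 lower (median -0.45). Ccnd1, cyclin D1, had 43.6 CPM in P10 and 9.25 CPM in E18.5 dividing leukocytes (ratio 4.72, 2.85 to 8.22), Ccnd3 had 212 and 58.9 CPM (ratio 3.59, 2.93 to 4.44), and Cdkn1a had 189 and 489 CPM (ratio 0.387, 0.343 to 0.436). Other leukocytes had ratios of 3.83 for Ccnd1, 4.23 for Ccnd3 and 0.421 for Cdkn1a.

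Lists of antigen presentation, T and NK and B cell genes stood higher at P10, and the glycolysis and hypoxia list lower. Of 9 measured macrophage genes 1 was higher and 3 lower in P10 dividing leukocytes (median log2 ratio 0.11), of 8 monocyte and dendritic genes 6 were higher and 0 lower (1.26), and of 4 measured neutrophil genes 2 were higher and 2 lower (0.03). Of 10 antigen presentation genes 8 were higher in P10 dividing leukocytes (median log2 ratio 4.60), against 7 of 10 in other leukocytes (3.89). H2-Aa had 1438 CPM in P10 and 26.3 CPM in E18.5 dividing leukocytes (ratio 54.7, 41.8 to 73.0), and Cd74, the MHC class II invariant chain, 3736 and 96.8 CPM (ratio 38.6, 33.5 to 44.6). In dividing myeloid cells alone, where 17.0% of measured genes were higher and 12.2% lower at P10 (14.2% and 10.5% in other myeloid cells), H2-Aa had 1847 CPM at P10 and 1.43 CPM, from 2 UMIs, at E18.5. All 7 measured T and NK genes and all 6 measured B cell genes were higher in P10 dividing leukocytes, beside 23 T or NK and 5 B cells there and 2 and 1 at E18.5. Marco was at 20.8 CPM in P10 and 156 CPM in E18.5 dividing leukocytes (ratio 0.134, 0.094 to 0.185). Of 12 glycolysis and hypoxia genes 10 were lower in dividing and 10 in other leukocytes, with medians of -1.42 and -1.58. Pgk1 had 71.6 CPM in P10 and 242 CPM in E18.5 dividing leukocytes, and without alveolar RNA 121 and 354 CPM. Ldha, lactate dehydrogenase A, had 186 and 598 CPM, and without alveolar RNA 257 and 765 CPM.

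RNA of alveolar cells differed between the libraries in the same sums. Of the AT1 list 9 of 9 measured genes were lower in P10 dividing leukocytes (median log2 ratio -4.78) and of the AT2 list 8 of 10 were higher (1.55), and in other leukocytes the counts were also 9 and 8. Of 8 measured genes of a fetal growth list 6 were lower, with a median of -2.60, and Dlk1, a Notch-related growth regulator, was at 3.55 CPM in P10 and 826 CPM in E18.5 dividing leukocytes. In E18.5 dividing leukocytes without alveolar RNA Dlk1 was at 141 CPM, against 0 UMIs in P10 ones. Without alveolar RNA, 22.0% of measured genes were higher and 12.2% lower in P10 dividing leukocytes, and 23.2% were higher and 9.49% lower in P10 other leukocytes. The AT1 list still had 9 of 9 measured genes lower in P10 dividing leukocytes there (median log2 ratio -3.00) and the AT2 list 9 of 10 higher (1.98). Spp1, osteopontin, was at 18.4 CPM in P10 and 1173 CPM in E18.5 dividing leukocytes without alveolar RNA. The part of free or doublet alveolar RNA in these differences was not tested.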

How the data were processed

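Raw UMI counts for each gene in each barcode were deposited as sparse matrices. The file headers name Cell Ranger 7.0.1 as the program the authors ran. The submitters' processing notes name mm10 and Seurat 4.0.0 without a role, and the sources used here do not say whether reads in introns entered the counts, which bears on genes with long introns. Both matrices list 32285 genes and no reporter transcript. The labelled kit and the type of the barcodes belong to different generations. The 2 libraries, 1 per time point, held 14503 barcodes and 171205348 UMIs at P10 and 12739 barcodes and 137837590 UMIs at E18.5, and the cell limits left out 417 and 712 barcodes.

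The members and lists were chosen with earlier results of these data known, and the lists of multiciliation and centriole genes, and the limits for lineages, after values were seen. A cell took a non-alveolar lineage when at least 60% of its list had a UMI, and was mixed when it met more than 1. AT2 and AT1 names, and alveolar RNA in other lineages, used a limit at the geometric mean of the 10th and 90th percentiles of the list's level. The AT2 limit was set for each library, at 765 UMIs per 10000 at P10 and 328 at E18.5. The AT1 limit was set at E18.5, at 53.3 UMIs per 10000, and used for both libraries. Club cells needed 100 UMIs per 10000, and leukocyte types 40% of their list. No doublet caller was run.

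UMIs were summed over the cells of a group, and scaled to CPM. Sums were compared across all genes for leukocytes, which had at least 50 members, and for 2 subsets of them chosen after seeing the data, and smaller lineages are described by levels. Ratios have exact conditional binomial intervals, levels exact Poisson intervals and shares Clopper-Pearson intervals, all at 95% and for counting error only. A share with a count of 0 was given the upper bound of its exact interval. Genes were named from the 8 rule genes, the 5 lineage genes, the lists, and the 12 with the highest and lowest ratio in each comparison at a mean of 50 CPM; Gzma, Cd74, Spp1 and Dlk1 entered that way or by a list. Leukocytes without alveolar RNA had 45 and 48 members, so the main sums held all leukocytes (84 and 100). Python 3.11.15, numpy 2.4.6, scipy 1.17.1, pandas 2.3.3 and matplotlib 3.10.9 were used, and the ratio step was tested on simulated data. Promoter sequences are from RefSeq on GRCm38.p6. Alternatives were other member thresholds, thinning, a stricter cell filter, lineage rules, scaling and level filters.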

Additional observations from a re-analysis of the deposited data

Results flagged for a closer look

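Cd79a, a chain of the B cell receptor complex, went in opposite directions in the 2 libraries when dividing leukocytes were set against other leukocytes. At P10 it had 93.4 CPM in dividing leukocytes (184 UMIs) and 144 CPM in other leukocytes (2275 UMIs), a log2 ratio of -0.62. At E18.5 it had 11.7 CPM in dividing leukocytes (24 UMIs) and 2.64 CPM in other leukocytes (62 UMIs), a log2 ratio of 2.15. There were 5 B cell members among 266 B cells at P10 and 1 among 6 at E18.5, so 1 cell can set the E18.5 value. The difference between the libraries was not tested.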

How the results depend on the processing

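No paired analysis was possible because each time point is 1 library, and for the same reason no replicate could be left out. The share of members depended on the rule and on depth. With at least 2 of the 8 genes it was 1.82% at P10 and 3.08% at E18.5, with at least 4 it was 0.582% and 1.16%, thinned it was 0.332% and 0.729%, and without the 5% of cells with the most UMIs 0.508% and 1.19%. Without all members that carry the ciliated list, mixed cells among them, it was 1.21% at E18.5. The E18.5 share was above the P10 share under each of these. Leukocytes were 60.2% of P10 and 43.2% of E18.5 members with at least 2 genes, 29.2% and 30.1% with lineages from the 5 single genes, and at E18.5 69.2% when thinned and 68.5% without members that carry the ciliated list. The share of leukocytes that were members was 10.3% at P10 and 9.89% at E18.5 with at least 2 genes, 3.09% and 3.47% when thinned, 2.15% and 4.59% with the 5 single genes, and at P10 4.35% with at least 4 genes and 4.29% without the deepest cells. That of alveolar cells was 0.580% at P10 and 1.15% at E18.5 with at least 2 genes, and at E18.5 0.0702% with at least 4 and 0.0396% when thinned. The S share of phase UMIs was 35.2% and 36.8% with at least 2 genes, 28.6% and 31.6% with at least 4, 28.2% and 30.6% when thinned, 33.7% and 30.4% without the deepest cells, at P10 and E18.5, and 35.9% at E18.5 without members that carry the ciliated list.

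Counts of genes past the fold moved most with the level filter and with fewer UMIs. Genes higher and lower in dividing P10 leukocytes numbered 1522 and 1595 when thinned, 729 and 479 without the deepest cells, 1379 and 510 with the 5 single genes, 106 and 90 at 50 CPM, 2406 and 5700 with no filter, and 924 and 712 without alveolar RNA, a setting chosen after seeing the data. At E18.5 the same settings gave 1460 and 1391, 566 and 337, 543 and 274, 68 and 10, 2076 and 5877, and 912 and 418. With at least 2 genes E18.5 gave 164 and 30, with at least 4 genes 91 lower, and with mixed cells joined to a lineage 33 lower. For P10 over E18.5 in dividing leukocytes the counts were 2736 and 2267 when thinned, 646 and 531 at 50 CPM, and 5224 and 3218 with no filter. A change of sign was counted as a turn only where the main ratio was past the fold. Of 916 values of single genes under these settings, over 79 genes in a comparison, 699 kept within the main interval, 214 left it without such a turn, and 3 turned: the log2 ratio of Wfdc17 at E18.5 became 0.36 with at least 2 genes, that of Gzma at P10 -1.81 with the 5 single genes, and that of Csta2 at P10 0.064 in myeloid cells alone. The causes were not tested. Scaling without surfactant, Scgb1a1, haemoglobin and mitochondrial genes shifted the median log2 ratio of all genes by at most 0.09. Depth limits the sums, since the members of all leukocytes hold 1970421 UMIs at P10 and 2055121 at E18.5.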

Other observations

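Several single genes were named by the size of their ratio alone and stand in no list. Hist1h1b, a linker histone made in S phase, had 268 CPM in dividing and 4.42 CPM in other P10 leukocytes. At E18.5, Stmn1, which destabilises microtubules, was at 690 CPM in dividing and 130 CPM in other leukocytes. The inflammatory genes Il1b and Wfdc17 were at 304 and 97.8 CPM in dividing E18.5 leukocytes and at 569 and 307 CPM in other E18.5 leukocytes, but the log2 ratio of Wfdc17 was 0.36 when members needed at least 2 of the 8 genes. Among P10 myeloid cells, the macrophage genes Gpnmb and Atp6v0d2 were at 41.0 and 55.3 CPM in dividing cells and at 202 and 213 CPM in other cells. None of the 12 measured genes of a 15-gene growth factor signalling list was past the fold in dividing leukocytes of either library.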
